A study of Mus musculus with 15 samples.

Results

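Transfer RNA synthetases attach each amino acid to its tRNA, and together with amino acid transporters and synthesis enzymes they supply the charged tRNA that protein synthesis uses. The 36 genes described here were listed by name, with earlier results of these data known, and fall into 4 families. They are 19 tRNA synthetase genes, 8 amino acid transporter genes, 4 genes of serine and asparagine synthesis enzymes, and 5 genes linked to the transcription factor ATF4. All 36 were found among the 55536 annotated genes of the count table, and 35 passed the filter on low counts, the exception being Chac1. Their levels were read in 15 RNA-seq libraries of mouse OT-I CD8+ T cells, with 5 libraries in each of the groups Naïve, Ag and Ag+Costim. OT-I cells carry a transgenic T cell receptor for the ovalbumin peptide SIINFEKL, and the methods give the donors as Rag1-/- or Rag2-/- OT-I mice on the C57BL/6J strain with the CD45.1 or CD45.1/2 alleles. In the Ag group such cells were transferred into wild-type C57BL/6J recipients, which received the peptide and a control rat IgG. In the Ag+Costim group the recipients received the peptide and agonist antibodies to the costimulatory receptors CD134 (OX40) and CD137 (4-1BB). Cells of both groups were sorted from spleen and lymph nodes on day 4 per the labels. Naïve cells came from OT-I mice and were never transferred, so antigen, transfer and the recipient cannot be told apart between Naïve and the other groups. The methods give mice of both sexes, 1.5 to 8 months old, with no age for a single library. In each group, replicates 1, 2 and 5 were recorded as female and 3 and 4 as male. The labels describe the libraries of a group as separate samples, and p-values measure the spread between these samples.

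Activated T cells take up and make amino acids at a far higher rate than resting T cells, because they grow and divide quickly. Cells sense a lack of amino acids through uncharged tRNA, which activates the kinase GCN2, raises the translation of Atf4 mRNA and so turns on synthetase, transporter and synthesis genes through a DNA element that ATF4 binds with C/EBP partners. Activation also raises many of these genes through MYC, which binds E-box sequences.

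Sequencing depth was 4865952 to 25280667 counts per library, the lowest being Ag 3, where 16.9% of sequenced reads were counted. All 6 CD8 T cell markers examined were detected, with summed levels of 4699 to 7573 CPM (counts scaled to library size) in Naïve, 3926 to 7111 in Ag and 4065 to 5061 in Ag+Costim. All 8 myeloid markers were also detected, with sums of 13.4 to 1017 CPM in Naïve, 68.0 to 194 in Ag and 88.9 to 182 in Ag+Costim. The Naïve maximum was Naïve 5, where S100a8 reached 433 CPM against at most 38.4 in Naïve 1 to 4. The 6 erythroid markers summed to 52.3 to 151 CPM in Naïve, 15 to 1311 in Ag and 4.39 to 37.0 in Ag+Costim, with the maximum in Ag 3. The 7 B cell markers summed to 584 to 974, 603 to 1509 and 546 to 827 CPM in the same order. The 4 CD4 T cell markers summed to at most 34.4 CPM in any library. The part of these cells in the values below was not tested, and with bulk RNA fewer cells and less RNA per cell cannot be told apart. Lane 2 held the 5 Ag libraries with Ag+Costim 1 to 3, and lane 3 held the 5 Naïve libraries with Ag+Costim 4 and 5, so that Ag and Naïve shared no lane. The recorded input amount, given without a unit, was 1.4 for Ag 2, 1.8 for Ag 5, 9.4 for Ag 3, 7 for Naïve 2 and 10 for the rest.

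The members made up between 0.325% of counts, in Ag 1, and 0.590%, in Ag+Costim 4. Between genes, levels were compared as transcript counts divided by transcript length, scaled per library to the same total as CPM. On this per-length scale Gars, which charges tRNA with glycine in cytosol and mitochondria, had the highest mean level over the 15 libraries, at 198. Its per-length level was 143 ± 50.7 (SD, n = 5) in Naïve, 180.3 ± 61.4 in Ag and 270.0 ± 15.2 in Ag+Costim. The glutamine transporter gene Slc1a5 followed at 159.9 and the aspartate synthetase gene Dars at 155, and Gars was above Slc1a5 in 9 of the 15 libraries, so these neighbours did not separate beyond their spread. Dars was above the next gene, Farsb, in 14 of 15. At the low end the per-length mean was 10.8 for Asns, 9.02 for Slc7a1, 6.37 for Sesn2, 2.96 for Trib3, 0.49 for Slc1a4 and 0.14 for Chac1. By per-length level the most abundant gene in Naïve was Slc1a5 (207 ± 63.9), and in Ag+Costim it was Gars.

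The promoters of some members share the short DNA element through which ATF4 and C/EBP factors act, TGATGNAA, and are shown here because the members that carry it come from all 4 families. RefSeq promoter windows of 300 bases on GRCm38.p6 (250 bases before each start and 50 after) were given for 26 of the 36 members. None was given for Cars, Hars, Lars, Nars, Rars, Vars, Wars, Slc7a5, Slc1a5 or Slc38a1. TGATGNAA, searched on both strands, was in the windows of 9 of the 26 members (34.6%), against 3.97% of all 32851 windows and 4.51% of their 27025 genes. The 9 members were 5 synthetase genes (Aars, Gars, Iars, Tars, Yars), the transporter gene Slc1a4, the asparagine synthesis gene Asns, and Chac1 and Trib3 of the ATF4-linked family. The list of members holds genes chosen for their link to ATF4, so a share above that of all genes was in part built into the choice. A match of letters is a description and not a binding site. The 60 bases around each match are printed below, 5′ to 3′ on the strand on which the match reads TGATGNAA, with the match in capitals.
Chac1, chr2:119351023-119351082, minus strand: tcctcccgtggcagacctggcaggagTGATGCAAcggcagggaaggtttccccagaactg
Trib3, chr2:152344013-152344072, plus strand: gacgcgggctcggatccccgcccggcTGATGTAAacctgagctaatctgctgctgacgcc
Yars, chr4:129189880-129189939, plus strand: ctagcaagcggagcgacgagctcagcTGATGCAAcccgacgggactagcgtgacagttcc
Asns, chr6:7693199-7693258, minus strand: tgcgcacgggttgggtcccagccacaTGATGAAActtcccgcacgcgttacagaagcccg
Gars, chr6:55037945-55038004, minus strand: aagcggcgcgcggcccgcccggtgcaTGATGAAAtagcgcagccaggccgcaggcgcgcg
Aars, chr8:111033704-111033763, minus strand: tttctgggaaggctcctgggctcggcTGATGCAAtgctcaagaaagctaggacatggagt
Aars, chr8:111033825-111033884, minus strand: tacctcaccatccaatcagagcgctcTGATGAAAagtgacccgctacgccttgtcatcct
Slc1a4, chr11:20332684-20332743, plus strand: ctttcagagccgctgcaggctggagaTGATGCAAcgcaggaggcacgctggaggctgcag
Iars, chr13:49682111-49682170, minus strand: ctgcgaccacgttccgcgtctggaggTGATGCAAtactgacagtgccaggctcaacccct
Tars, chr15:11399640-11399699, plus strand: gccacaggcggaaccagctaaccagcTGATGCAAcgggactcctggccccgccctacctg
Counted from the starts that RefSeq gives, the matches began 23 bases before the start of Asns, 30 before that of Gars, 15 before that of Tars, 4 before that of Slc1a4 and 193 before that of Chac1. In Iars, Yars and Trib3 the match lay 7, 3 and 14 bases after the start. Aars held a pair of matches, at 112 bases before and 9 bases after its start. The E-box CACGTG, a palindrome, was in the windows of Aars, Farsb, Iars and Tars, 4 of 26 members (15.4%), against 7.15% of all windows and 8.09% of genes, and overlapped no TGATGNAA match. The Aars window, on chr8:111033592-111033891 of the plus strand, is given whole because it holds both motifs, with the E-box and both TGATGNAA matches in capitals, the latter on the opposite strand.
Aars window: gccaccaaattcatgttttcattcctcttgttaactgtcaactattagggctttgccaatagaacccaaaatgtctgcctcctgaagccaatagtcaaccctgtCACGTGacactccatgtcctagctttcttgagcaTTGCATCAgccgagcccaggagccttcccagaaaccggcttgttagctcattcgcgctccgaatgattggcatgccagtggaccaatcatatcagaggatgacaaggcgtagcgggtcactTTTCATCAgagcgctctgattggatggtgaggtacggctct

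The summed CPM of the 19 synthetase genes was 2088, 2271, 2469, 2086 and 3272 in Naïve 1 to 5. In Ag 1 to 5 the sum was 1808, 3413, 3107, 1973 and 3792, and in Ag+Costim 1 to 5 it was 3782, 3837, 3923, 4513 and 4260.2. Naïve 5 stood above the other Naïve libraries, Ag 1 and Ag 4 stood below every Naïve library, and Ag 5 overlapped with the lowest Ag+Costim library. Of the 19 synthetase genes, 18 had their highest Naïve value in Naïve 5. All 19 had Ag 1 among the 2 lowest Ag libraries, 17 had Ag 4 there, and 16 had their highest Ag value in Ag 5. The spread was wider among the Ag libraries (2818 ± 883 CPM, SD, n = 5) than among the Ag+Costim libraries (4063 ± 313). Among the Ag libraries, the input amount was recorded as 1.4 and 1.8 for Ag 2 and Ag 5 and as 9.4 to 10 for the others. Its part in the spread was not tested. The deposited FPKM columns of Naïve 5 and Ag 1 were identical in 22083 entries, while their counts differed. Whether both libraries carry the right label was not tested.

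**Figure D1:**
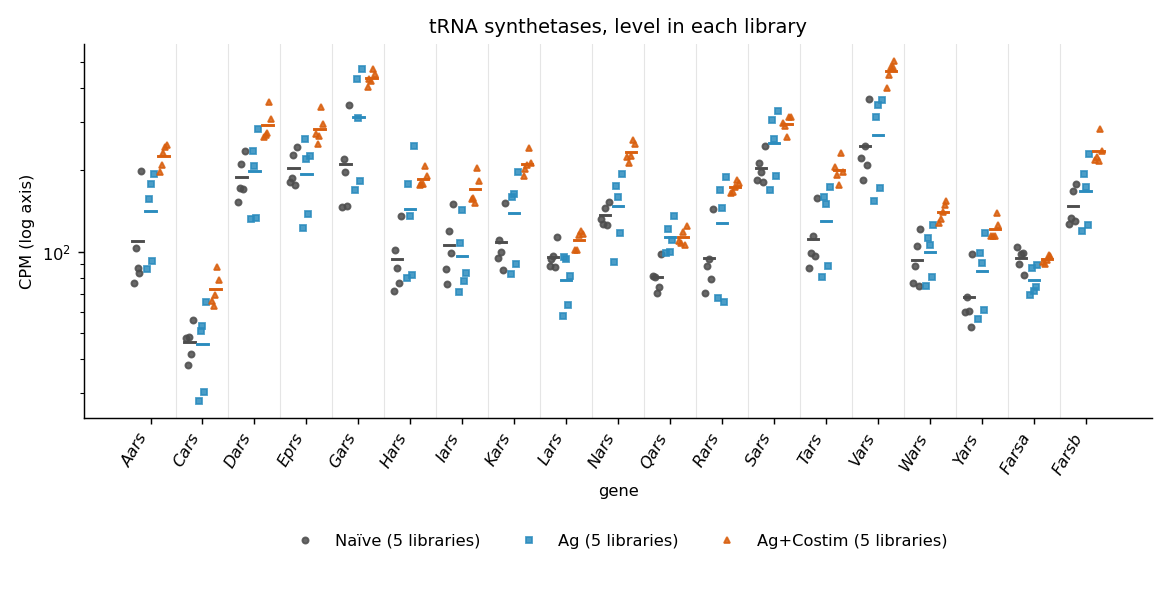
Level of each of the 19 tRNA synthetase genes in CPM (log axis) in every library, with a horizontal bar for the mean of each group of 5. The Ag points spread widely and the Ag+Costim points lie close together, wholly above the Ag points for 8 of the 19 genes. In Gars, Hars, Qars, Rars and Sars the highest Ag point lies above every Ag+Costim point. Qars shows Ag and Ag+Costim at the same level and Farsa shows little change.

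Ag was compared with Naïve to ask what transfer and antigen change. Of the 35 members tested, 1 was higher and 1 lower in Ag past an edgeR FDR of 0.05, where 3.05% of all 17366 genes tested were higher and 3.66% were lower, 6.71% in all. Qars, which charges tRNA with glutamine, was the synthetase gene that rose, and Slc38a2, a sodium-coupled transporter of small neutral amino acids (SNAT2), was the transporter gene that fell. The median log2 fold change was 0.19 over the 19 synthetase genes and 0.08 over all genes tested. A positive value was seen for 14 of the 19, where 55.8% of all genes had one, and with library totals alone Dars turned negative (-0.03). The sign of the family depended on the processing: with voom, Dars, Nars, Rars, Tars, Vars and Farsb also turned negative and the median was -0.04, with no filter Dars, Vars and Wars turned negative, and with lane as a term the median was 0.39.

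Qars (chr9:108507706-108515941) stood at 81.3, 80.6, 70.1, 74.1 and 98.2 CPM in Naïve 1 to 5, 98.7, 121, 99.7, 110.2 and 135 in Ag 1 to 5, and 109, 108, 118, 106 and 124 in Ag+Costim 1 to 5. Every Ag library was above every Naïve library, which held for 1.76% of all genes in this direction. The log2 change was 0.48 ± 0.12 (SE, edgeR FDR = 0.0267). The call was lost when any one of Naïve 1, Naïve 3, Naïve 4, Ag 2, Ag 5 or Ag+Costim 4 was left out, with edgeR FDR between 0.0550 and 0.106. With only the 10 libraries compared the edgeR FDR was 0.207, with no filter 0.320 and with lane as a term 0.626. Among the 18 other synthetase genes, Hars had the largest fold change, at 0.61 ± 0.28 (SE, edgeR FDR = 0.161), and Lars the lowest, at -0.29 ± 0.14 (edgeR FDR = 0.185).

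Slc38a2 (chr15:96687392-96699730) was at 162, 167, 244, 235 and 194 CPM in Naïve 1 to 5, 119, 113, 146, 124 and 102 in Ag 1 to 5, and 159.5, 142, 132, 160.5 and 146 in Ag+Costim 1 to 5. All Ag libraries were below all Naïve libraries, as for 2.09% of genes. Its log2 fold change was -0.73 ± 0.14 (SE, edgeR FDR = 0.0118), and the call held without any single library (edgeR FDR at most 0.0409). The call was lost with no filter (edgeR FDR = 0.0575) and with lane as a term (edgeR FDR = 0.626). It was also lost with only the 10 libraries compared (edgeR FDR = 0.12), a fit without Ag+Costim that called 6 of 16742 genes. The other 7 transporter genes did not pass in the main edgeR fit, and 6 of them had values below 0. DESeq2 also called Slc3a2 lower, as did edgeR with library totals alone (edgeR FDR = 0.0436), and voom called Slc3a2, Slc7a5 and Slc7a6 lower.

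The serine enzymes turn an intermediate of glycolysis into serine in the order Phgdh, Psat1, Psph. None of the 4 synthesis genes passed in Ag against Naïve. The smallest p-values were those of Psph, with a log2 change of 0.46 ± 0.18 (SE, edgeR FDR = 0.123), and Psat1, with 1.10 ± 0.51 (SE, edgeR FDR = 0.171). Of the ATF4-linked genes, Sesn2, a leucine-binding inhibitor of mTORC1, had 0.68 ± 0.25 (SE, edgeR FDR = 0.098) and Trib3, a pseudokinase induced under stress, had 0.43 ± 0.32 (SE, edgeR FDR = 0.352). Naïve 5 was the library with the high myeloid sum, and its FPKM column was identical to that of Ag 1. Without Naïve 5, 6 members were higher in Ag (Aars, Gars, Qars, Psat1, Phgdh and Sesn2) and 2 lower (Slc38a2 and Farsa), in a fit that called 2270 genes higher and 1601 lower of 17981. Ag and Naïve shared no lane, and with lane as a term, which the Ag+Costim libraries of both lanes inform, 0 members passed in either direction. In that fit 0 of all 17366 genes passed.

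Ag+Costim was compared with Ag to ask what the OX40 and CD137 agonists add to antigen. No member passed an edgeR FDR of 0.05 in either direction, in a comparison where 0.0346% of all genes did, 0.0288% higher and 0.00576% lower. At an unadjusted edgeR p under 0.05, 19 members were higher in Ag+Costim (14 synthetase genes and 5 transporter genes), where 7.28% of all genes were, and 1 was lower (Ddit3), where 19.5% were. Fold changes were above 0 for all 19 synthetase genes, or for 18 with size factor scaling (Qars at -0.00111) and with library totals alone (Qars at -0.06). Their median was 0.52, while 42.1% of all genes were above 0 and the median of all genes was -0.10. DESeq2 called 11 members higher and 1 lower, where it called 664 genes higher and 1869 lower of 17321. The limma voom fit with sample quality weights called 27 and 1, where it called 4997 genes higher and 4982 lower of 17366. All 11 that DESeq2 called were synthetase genes (Cars, Dars, Eprs, Iars, Kars, Lars, Nars, Tars, Vars, Wars and Farsb).

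These counts depended on single Ag libraries. Leaving out Ag 2 gave 14 members higher and 1 lower in edgeR, with 965 genes higher and 1714 lower of 18092. Leaving out Ag 5 also gave 14 and 1, with 756 genes higher and 2817 lower of 18108. Leaving out Ag 3 gave 1 higher, Iars, with 44 genes higher and 71 lower of 17531. Leaving out any of the other 12 libraries gave none, with at most 46 of all genes passing, without Naïve 5. Within lane 2 (5 Ag and 3 Ag+Costim libraries) none passed, as 0 of all 16920 genes did, and the median log2 fold change of the synthetase genes was 0.45.

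The smallest p-values among the synthetase genes were those of Nars and Iars, which charge tRNA with asparagine and isoleucine. Nars stood at 132, 126, 145, 125 and 153 CPM in Naïve 1 to 5, 91.7, 174, 159, 117 and 194 in Ag 1 to 5, and 223, 213, 225, 258 and 249 in Ag+Costim 1 to 5. The log2 change was 0.66 ± 0.17 (SE, edgeR FDR = 0.0807), and every Ag+Costim library was above every Ag library. Iars was at 86.1, 75.6, 119, 98.6 and 149.8 CPM in Naïve 1 to 5, 70.9, 108, 143, 77.9 and 83.1 in Ag 1 to 5, and 157, 158, 152, 203 and 183 in Ag+Costim 1 to 5. Its fold change was 0.82 ± 0.21 (SE, edgeR FDR = 0.0807), and its groups did not overlap either. The same separation was seen for Aars, Lars, Tars, Vars, Wars and Farsa, so that 8 of the 19 synthetase genes had Ag+Costim wholly above Ag, as did 4.23% of all genes. Qars had the lowest value of the 19, with a log2 change of 0.00 ± 0.12 (SE, edgeR FDR = 0.998), and -0.05 without Ag 1.

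**Figure D2:**
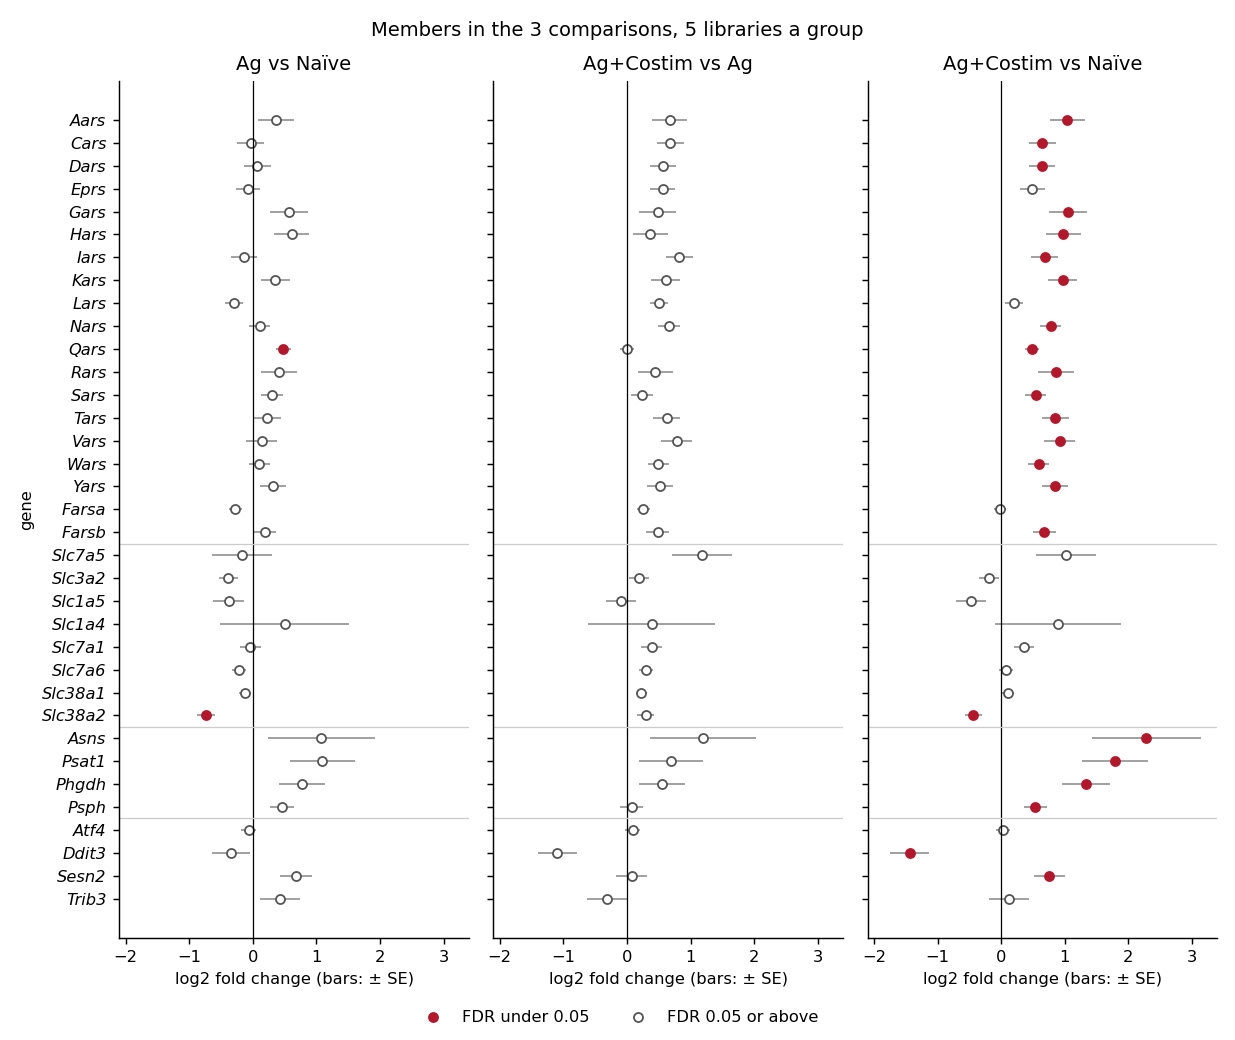
Log2 fold change with its SE for the 35 members tested in the 3 comparisons, filled where the edgeR FDR was under 0.05. Synthetase genes lie to the right of 0 in Ag+Costim against Ag without passing, and 16 of 19 pass in Ag+Costim against Naïve, while Slc38a2 and Ddit3 lie to the left.

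Slc7a5 encodes LAT1, the carrier of large neutral amino acids such as leucine. Its level was 32.0, 32.0, 44.8, 37.2 and 103 CPM in Naïve 1 to 5, 14.1, 68.6, 59.9, 11.9 and 67.1 in Ag 1 to 5, and 87.1, 107, 99.4, 114 and 96.2 in Ag+Costim 1 to 5. Ag 1 and Ag 4 were the lowest of all 15 libraries, the other Ag libraries held 59.9 to 68.6, and Naïve 5 matched the Ag+Costim libraries. Against Ag, the Ag+Costim log2 fold change was 1.19 ± 0.47 (SE, edgeR FDR = 0.134). Against Naïve, it was 1.01 ± 0.47 (SE, edgeR FDR = 0.0875), a comparison singled out after its values were seen. Without Naïve 5 the latter rose to 1.48 and passed, with an edgeR FDR of 0.0165.

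Slc3a2 encodes the CD98 heavy chain that carries LAT1 to the cell surface. It did not follow Slc7a5: its level was 129.7 ± 18.5 CPM (SD, n = 5) in Naïve, 99.4 ± 24.7 in Ag and 113 ± 5.39 in Ag+Costim, with no call in any comparison of the main edgeR fit. Its call depended on the tool and the scaling. In Ag against Naïve it was lower with DESeq2, voom and edgeR on library totals alone. In Ag+Costim against Naïve it was lower with voom and edgeR on library totals alone, and in Ag+Costim against Ag it was higher with voom. Slc7a6, another partner of the CD98 chain that exchanges basic for neutral amino acids, was at 51.9, 41.2, 51.2, 57.6 and 51.1 CPM in Naïve 1 to 5, 39.9, 49.2, 39.2, 38.8 and 49.7 in Ag 1 to 5, and 51.7, 51.4, 52.9, 58.4 and 52.3 in Ag+Costim 1 to 5. All Ag+Costim values lay above all Ag values, with a log2 change of 0.30 ± 0.11 (SE, edgeR FDR = 0.114). Slc7a1, the arginine and lysine carrier CAT1, held 31.9 ± 6.39, 31.2 ± 6.58 and 40.8 ± 2.49 CPM in the same order of groups.

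The glutamine carrier Slc1a5 (ASCT2) was at 415, 282, 321, 411 and 215 CPM in Naïve 1 to 5, 346, 179, 176, 376 and 187 in Ag 1 to 5, and 236, 238, 269, 204 and 237 in Ag+Costim 1 to 5. The 3 lowest values were in Ag 2, Ag 3 and Ag 5 and the lowest Naïve value was in Naïve 5. The gene passed in no comparison of the main edgeR fit (lowest edgeR FDR 0.116, in Ag+Costim against Naïve). In that comparison it was called lower with voom (log2 fold change -0.67) and with only the 10 libraries compared (-0.53, edgeR FDR = 0.0231). Slc38a1, the SNAT1 carrier, held 211 ± 19.3, 194 ± 13.3 and 227 ± 9.95 CPM in Naïve, Ag and Ag+Costim, and its Ag+Costim values did not overlap with Ag. Slc1a4 (ASCT1), whose promoter element is printed above, was near the limit of detection, at 0 to 1.88 CPM in Naïve, 0 to 3.92 in Ag and 1.46 to 2.18 in Ag+Costim.

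Ag+Costim was also compared with Naïve, the combined change of transfer, antigen and costimulation. Of 35 members tested, 21 were higher and 2 were lower past an edgeR FDR of 0.05, where 21% of all genes were higher and 23.6% lower, 44.7% in all. At an unadjusted edgeR p under 0.05 it was 24 higher and 2 lower, where 26.1% of all genes were higher and 29.6% lower, 55.7% in all. Of the 35, 30 had a log2 fold change above 0, as did 46.7% of all genes, and the 5 below 0 with TMM scaling were joined by Atf4, Slc7a6, Slc38a1 and Trib3 with library totals alone. The 21 were 16 of 19 synthetase genes, all 4 synthesis genes and Sesn2, and the 2 were Slc38a2 and Ddit3. The synthetase genes had a median log2 fold change of 0.69 and the synthesis genes 1.56, against -0.08 over all genes. The 3 synthetase genes that did not pass were Eprs (log2 fold change 0.49 ± 0.19, SE, edgeR FDR = 0.0537), Lars and Farsa. The ranges of Ag+Costim and Naïve did not overlap for 16 of the 19 synthetase genes, as for 22.7% of all genes in this direction.

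The largest synthetase changes were those of Gars, Aars and Hars. Gars (chr6:55038007-55079500) stood at 146, 219.7, 196, 148 and 348 CPM in Naïve 1 to 5, 169, 433, 311, 183 and 473 in Ag 1 to 5, and 405, 434, 428, 473 and 451 in Ag+Costim 1 to 5. Naïve 5 lay between the other Naïve libraries and Ag+Costim, and the log2 fold change was 1.05 ± 0.30 (SE, edgeR FDR = 0.0163). Aars (chr8:111033144-111057664), the alanine enzyme and the gene with a pair of TGATGNAA matches, was at 76.7, 103, 87.3, 83.6 and 198 CPM in Naïve 1 to 5, 86.4, 156, 178, 92.6 and 194 in Ag 1 to 5, and 196, 209, 232, 243 and 248 in Ag+Costim 1 to 5. Naïve 5 lay just above the lowest Ag+Costim library here, and the fold change was 1.04 ± 0.28 (SE, edgeR FDR = 0.0134). Hars, the histidine enzyme, was at 71.7, 102, 86.8, 76.4 and 135 CPM in Naïve 1 to 5, 79.8, 178, 136, 81.9 and 246 in Ag 1 to 5, and 177, 178, 178, 206 and 190.0 in Ag+Costim 1 to 5. Its highest value was in Ag 5, above every Ag+Costim library, and the Ag+Costim fold change over Naïve was 0.98 ± 0.28 (SE, edgeR FDR = 0.0163).

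Both subunits of the phenylalanine synthetase were measured, Farsa for the alpha and Farsb for the beta subunit. Farsb held 147 ± 24.2 CPM (SD, n = 5) in Naïve, 168 ± 46.5 in Ag and 235 ± 27.5 in Ag+Costim, and rose against Naïve by 0.68 ± 0.18 on the log2 scale (SE, edgeR FDR = 0.0127). Farsa held 94.6 ± 8.56, 78.3 ± 9.42 and 93.6 ± 3.11 CPM, with a log2 change of -0.02 ± 0.10 (SE, edgeR FDR = 0.902) that turned positive without some single libraries, at most to 0.09, without Ag 2. The difference between the subunits was not itself tested.

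Asns, which makes asparagine, had the largest fold change of the members tested in Ag+Costim against Naïve. It stood at 2.43, 8.67, 0.746, 1.25 and 14.4 CPM in Naïve 1 to 5, 0.947, 14.9, 17.9, 1.36 and 23.1 in Ag 1 to 5, and 29.2, 22.9, 18.3, 34.3 and 28.2 in Ag+Costim 1 to 5. Every Ag+Costim library was above every Naïve library, and among the Ag libraries Ag 1 and Ag 4 were near 1 CPM. The log2 fold change over Naïve was 2.28 ± 0.86 (SE, edgeR FDR = 0.0441), and over Ag it was 1.20 ± 0.83 (SE, edgeR FDR = 0.361). The call over Naïve was lost on leaving out any one of Naïve 1 to 4 or of Ag+Costim 1 to 5, with edgeR FDR up to 0.0986.

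The reads of Asns also fell on different annotated transcripts. The transcript Asns-201 (chr6:7675169-7693254, minus strand, 2001 bases) has its annotated first base within the stretch printed above, upstream of the RefSeq start, so that the TGATGNAA match lies after the start of Asns-201, and Asns-202 begins at position 7692871, inside the gene. Estimated counts of Asns-201 were 7, 6, 0, 0 and 213 in Naïve 1 to 5, 2, 214, 17, 0 and 364 in Ag 1 to 5 and 437, 280, 258, 525 and 404 in Ag+Costim 1 to 5. Those of Asns-202 were 30, 102, 19, 18 and 0 in Naïve, 9, 0, 58, 17 and 0 in Ag, and 2, 0, 0, 0 and 0 in Ag+Costim. Asns-201 thus held most Asns reads in all Ag+Costim libraries and in Naïve 5, Ag 2 and Ag 5, and Asns-202 held most in the remaining libraries. StringTie shares short reads between transcripts by estimate, counts were low, and the split was not tested.

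**Figure D3:**
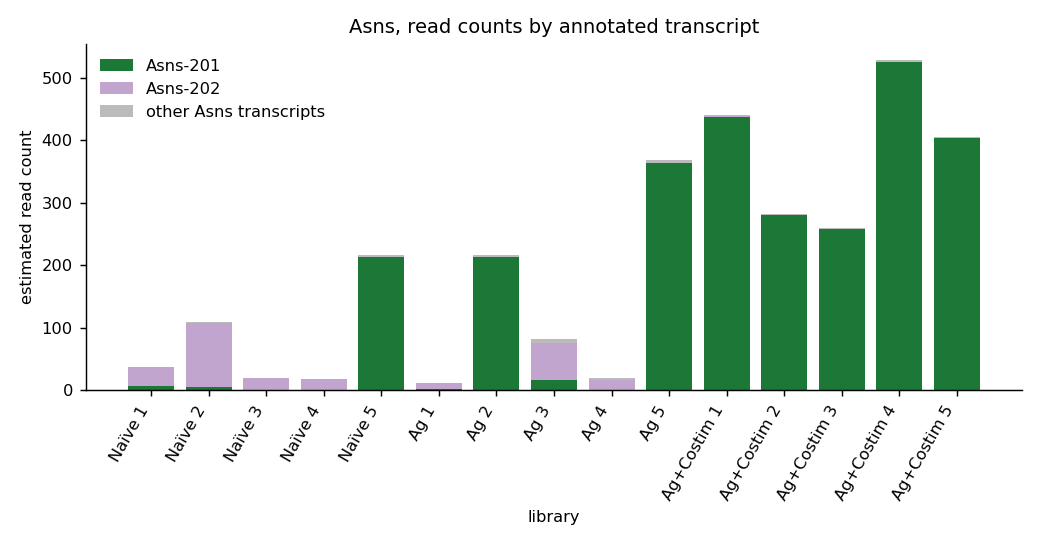
Estimated read counts of Asns in each library, stacked by annotated transcript (Asns-201, Asns-202 and the rest). Asns-201 fills the bars of Ag+Costim 1 to 5, Ag 2, Ag 5 and Naïve 5, and Asns-202 makes up most of the low bars of the other libraries.

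Psat1, the aminotransferase of serine synthesis, was at 41.2, 75.0, 38.6, 31.9 and 178 CPM in Naïve 1 to 5, 53.5, 229, 157, 62.4 and 279 in Ag 1 to 5, and 234, 226, 250.5, 292 and 261 in Ag+Costim 1 to 5. Naïve 5 was the one Naïve library near the Ag+Costim level, and Ag 5 was above 4 of the 5 Ag+Costim libraries. The log2 fold change of Ag+Costim over Naïve was 1.79 ± 0.52 (SE, edgeR FDR = 0.0173). Phgdh, the first enzyme of the path, was at 65.8, 114, 80.9, 64.4 and 183 CPM in Naïve 1 to 5, 77.0, 252, 178, 83.3 and 281 in Ag 1 to 5, and 247, 234, 246, 295 and 259 in Ag+Costim 1 to 5. Naïve 5 and Ag 5 were again the highest of their groups, with an Ag+Costim fold change over Naïve of 1.33 ± 0.37 (SE, edgeR FDR = 0.0153) and over Ag of 0.55 ± 0.37 (SE, edgeR FDR = 0.338). Psph, the last enzyme, held 54.5 ± 7.68, 75.1 ± 23.8 and 79.1 ± 3.59 CPM (SD, n = 5) in Naïve, Ag and Ag+Costim and was higher in Ag+Costim than in Naïve (log2 fold change 0.54 ± 0.18, SE, edgeR FDR = 0.0314). The Psph call was lost without any one of Naïve 1, 3 or 4 or Ag+Costim 1, 2 or 5 (edgeR FDR up to 0.0796).

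Among the ATF4-linked genes, Atf4 itself overlapped between all groups. Its level was 101, 117, 96.5, 118 and 98.3 CPM in Naïve 1 to 5, 94.9, 117, 91.0, 91.0 and 113 in Ag 1 to 5, and 105, 106, 104, 129.9 and 94.5 in Ag+Costim 1 to 5. The log2 change was -0.06 ± 0.11 (SE, edgeR FDR = 0.728) in Ag against Naïve, 0.09 ± 0.11 (edgeR FDR = 0.629) in Ag+Costim against Ag and 0.03 ± 0.11 (edgeR FDR = 0.86) in Ag+Costim against Naïve. Atf4 was singled out after its values were seen, and the mRNA level says nothing of its protein, which is set by translation. Its sign in Ag+Costim against Naïve changed with the scaling, at -0.13 with library totals alone, which moved the median of all genes from -0.08 to -0.23.

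Ddit3 encodes CHOP, a transcription factor of the stress response that ATF4 induces. Its level was 20.9, 20.4, 20.9, 21.6 and 7.64 CPM in Naïve 1 to 5, 20.5, 9.71, 11.3, 21.2 and 9.45 in Ag 1 to 5, and 8.35, 7.07, 6.61, 5 and 6.81 in Ag+Costim 1 to 5. The libraries with high Ddit3 were Naïve 1 to 4, Ag 1 and Ag 4, and these had the lowest synthetase sums of all. The same libraries also had the lowest values of Asns, Psat1 and Phgdh. This pairing was picked out after the values were seen and was not tested. Ag+Costim was below Ag without overlap, as for 2.1% of genes, at a log2 change of -1.10 ± 0.31 (SE, edgeR FDR = 0.0818). Against Naïve, Ddit3 fell by 1.44 ± 0.31 on the log2 scale (SE, edgeR FDR = 0.00598), and this call held without any single library (edgeR FDR at most 0.0259).

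**Figure D4:**
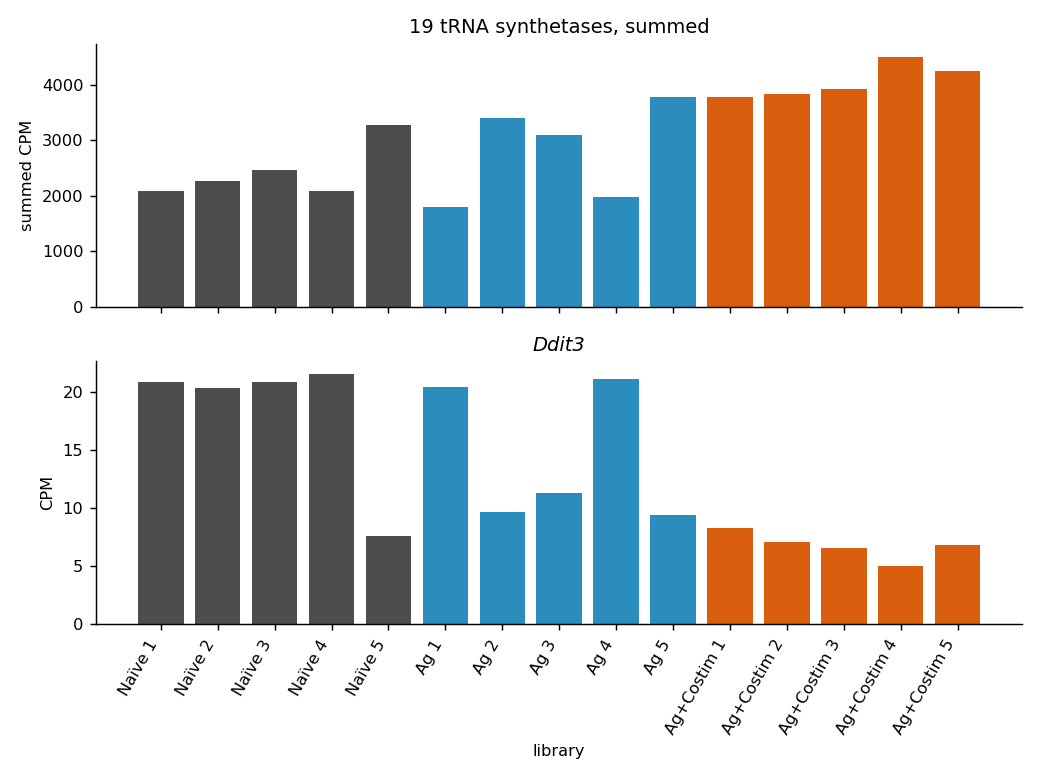
Summed CPM of the 19 synthetase genes (top) and CPM of Ddit3 (bottom) in each of the 15 libraries, coloured by group, with both axes from 0. The libraries with synthetase sums from 1808 to 2469 (Naïve 1 to 4, Ag 1 and Ag 4) have Ddit3 at 20.4 to 21.6, and the others have sums from 3107 to 4513 and Ddit3 at 5 to 11.3.

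Sesn2 was at 6.08, 8.99, 10.4, 9.73 and 17.3 CPM in Naïve 1 to 5, 12.1, 16.3, 14.6, 16.3 and 24.7 in Ag 1 to 5, and 15.7, 17.6, 15.5, 18.3 and 21.5 in Ag+Costim 1 to 5, and was higher in Ag+Costim than in Naïve at a log2 change of 0.76 ± 0.25 (SE, edgeR FDR = 0.0265). Naïve 5 was again the highest Naïve library and the groups overlapped through it. Without any one of Naïve 1 to 4 or Ag+Costim 5 the call was lost (edgeR FDR up to 0.0663). Trib3 held 3.37 ± 1.03, 4.56 ± 1.59 and 3.68 ± 1.16 CPM, with Ag+Costim fold changes of 0.12 ± 0.31 against Naïve (edgeR FDR = 0.754) and -0.31 ± 0.32 against Ag (edgeR FDR = 0.538). With library totals alone the Trib3 fold change against Naïve was -0.03. Chac1, a glutathione-degrading enzyme, had no read in any Naïve library, where a count of 0 allows up to 3 counts, or 0.119 to 0.248 CPM. It had 4, 0, 7, 2 and 0 reads in Ag 1 to 5 and 3, 0, 0, 0 and 2 in Ag+Costim 1 to 5. Trib3 and Chac1, both with a TGATGNAA match, thus stayed at low levels in every library.

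**Figure D5:**
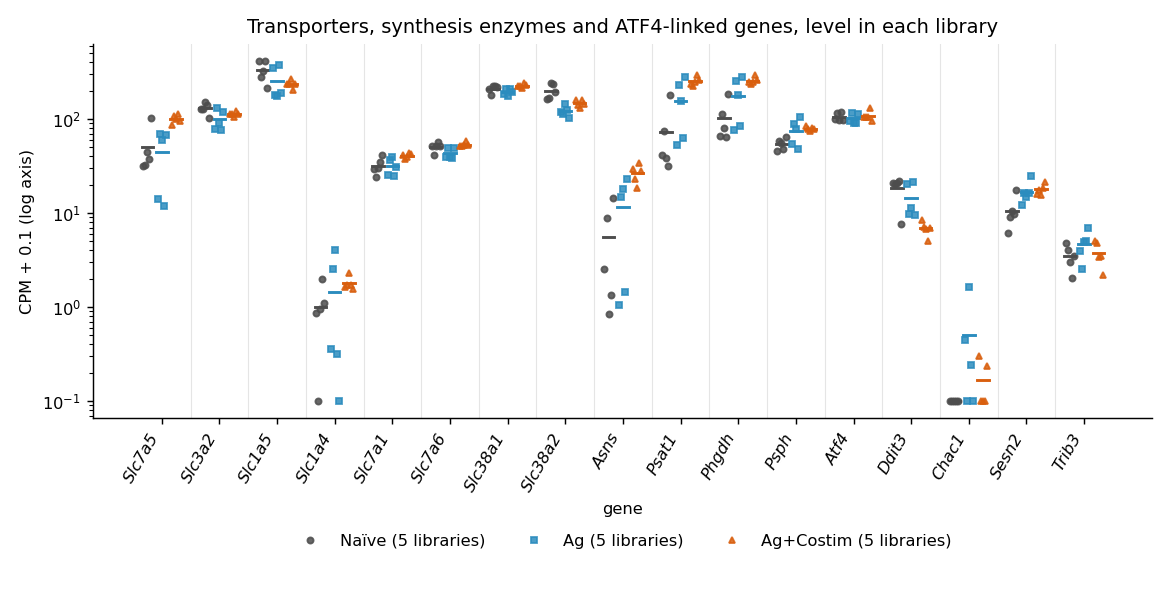
Level of the 8 transporter, 4 synthesis and 5 ATF4-linked genes as CPM + 0.1 (log axis) in every library, with a bar for each group mean, so that points at 0.1 are zeros. Asns, Psat1, Phgdh and Slc7a5 show a split among the Ag points, Ddit3 is lowest in Ag+Costim, and Atf4 lies at one level throughout.

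Slc38a2, the transporter that was lower in Ag than in Naïve, was lower in Ag+Costim than in Naïve as well, at a log2 change of -0.44 ± 0.14 (SE, edgeR FDR = 0.0224), with no overlap between the groups, as for 22.3% of genes in this direction. This call was lost without any one of Naïve 3, Naïve 4, Ag 2, Ag+Costim 3 or Ag+Costim 4 (edgeR FDR up to 0.0765). Against Ag it was 0.29 ± 0.14 (SE, edgeR FDR = 0.184).

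The count of members higher in Ag+Costim than in Naïve fell from 21 to 13 without Naïve 1 and without Naïve 4, and rose to 24 without Naïve 5 and without Ag 2. The count over all genes moved the same way. It was 3648 of 17366 in the main fit, 1447 of 18006 without Naïve 1 and 1413 of 18014 without Naïve 4. Without Naïve 5 it was 4604 of 17981, and without Ag 2 it was 4619 of 18092. Within lane 3 (2 Ag+Costim and 5 Naïve libraries) 20 were higher and 1 lower, with 2571 genes higher and 3772 lower of 18287, and the median log2 fold change of the synthetase genes was 0.87. With lane as a term in the fit across all libraries the count was 1 higher (Nars) and 0 lower, with 258 genes higher and 685 lower of 17366, while that median was 0.87.

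Other genes of the same paths were counted from lists set by name, also with earlier results of these data known. Their counts are to be read against the 21% of all genes higher and 23.6% lower in Ag+Costim than in Naïve. Of 7 synthetase partners tested, among them the methionine enzyme Mars and the scaffold proteins of the multisynthetase complex, 3 were higher in Ag+Costim than in Naïve and none lower, with Mars at 0.82 ± 0.28 (SE), edgeR FDR = 0.032 and Aarsd1 at 0.76 ± 0.28 (SE), edgeR FDR = 0.0429 on the log2 scale. Of 20 mitochondrial synthetase genes, 4 were higher and 2 lower. The larger of the changes lower was that of Ears2, at -0.88 ± 0.20 (SE), edgeR FDR = 0.00778. Of 18 further genes of amino acid synthesis tested, 8 were higher and 1 lower, led by the branched-chain aminotransferase Bcat1, at 2.12 ± 0.81 (SE), edgeR FDR = 0.0467, and by Shmt1, which turns serine into glycine, at 1.5 ± 0.47 (SE), edgeR FDR = 0.024.

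Of 15 further amino acid transporters tested, 2 were higher and 2 lower in Ag+Costim than in Naïve. The 2 largest changes were both lower, Slc43a2 at -1.49 ± 0.22 (SE), edgeR FDR = 0.00154 and the lysosomal transporter Slc38a9 at -1.39 ± 0.30 (SE), edgeR FDR = 0.00581. Of 12 further ATF4 targets tested, 2 were higher and 2 lower, with Mthfd2, a mitochondrial folate enzyme, at 1.55 ± 0.34 (SE), edgeR FDR = 0.00662, and Ppp1r15a, which reverses the phosphorylation of eIF2, at -1.45 ± 0.27 (SE), edgeR FDR = 0.00369. Of 29 genes of eIF2 kinases and amino acid sensing, 8 were higher and 7 lower. Rragd, a GTPase of the mTORC1 sensor, fell from a mean of 4.47 to 0.329 CPM, at -3.72 ± 0.92 (SE), edgeR FDR = 0.00981, and Sesn1, a relative of Sesn2, was at -2.53 ± 0.51 (SE), edgeR FDR = 0.00463.

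In Ag against Naïve the lists held fewer calls. None of the partners and none of the synthesis genes passed, 1 mitochondrial synthetase gene (Ears2), 1 transporter gene (Slc43a2) and 1 ATF4 target (Ppp1r15a) were lower, and of the sensing genes 3 were higher and 1 lower, where 3.05% of all genes were higher and 3.66% lower. Among the sensing genes, Castor1, an arginine sensor, had the largest change past the threshold, at 1.31 ± 0.24 (SE), edgeR FDR = 0.0106, and the ATF4 target Ppp1r15a was at -1.34 ± 0.27 (SE), edgeR FDR = 0.0152. In Ag+Costim against Ag no gene of these lists passed in edgeR, and at an unadjusted p under 0.05, where 7.28% of all genes were higher and 19.5% lower, 1 of 7 partners was higher and 0 lower. Of 20 mitochondrial synthetases it was 5 and 1, of 15 transporters 1 and 3, of 18 synthesis genes 3 and 1, of 12 ATF4 targets 1 and 1, and of 29 sensing genes 6 and 6.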

How the data were processed

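RNA of sorted OT-I CD8+ T cells was sequenced as single reads, of 50 bases per the labels and 100 per the methods, from SMART-Seq v4 and Nextera XT libraries, which keep no strand, so reads from overlapping antisense genes cannot be told apart. The submitters' processing notes name HISAT2 2.1.0, SAMtools 1.9, StringTie 2.1.0 and DESeq2 1.30.1, and the build is mm10. Neither the annotation release nor StringTie's read length setting is given in the sources used here. The deposited tables hold counts per gene and per transcript, and a further deposited table holds FPKM made by the authors. The percent of reads aligned was deposited in a table of library facts and was only looked at. Of 81881 gene entries, 55536 were matched by identifier to GENCODE M21. Another 26248 entries, named by a number alone, held 0.0818% of counts and stayed out of library sizes and tests.

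Counts were tested with edgeR 4.0.16 (quasi-likelihood, robust, TMM, filterByExpr, 1 coefficient per group over all 15 libraries) in R 4.3.3, with Benjamini-Hochberg FDR over 17366 genes and a threshold of 0.05. DESeq2 1.42.0, limma 3.58.1 (voom with sample quality weights), other scalings, no filter, lane as a term, single lanes, the 10 libraries compared, a replicate block and each library left out were alternatives. The script was tested on simulated counts. The genes described and the gene lists were chosen with earlier results of these data known. Values are given for members that passed the threshold or had the smallest p-values in their family, for the largest fold changes where many passed, and for Atf4. Slc7a5 in Ag+Costim against Naïve, Chac1, Farsa, Farsb and the other members named were chosen after their values were seen. In other lists, the largest changes past the threshold were named, apart from items not reported here. CPM was computed with TMM-scaled library sizes. Levels per length came from transcript counts, and were compared with the deposited FPKM of 13 libraries, since the FPKM columns of Naïve 5 and Ag 1 were identical in 22083 entries. The floors given for a count of 0 cover counting error only. No within-group pair of libraries agreed within sampling noise (chi-square per degree of freedom 5.62 to 249).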

Additional observations from a re-analysis of the deposited data

Results flagged for a closer look

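In 7 of 108 groups of 5 libraries, 1 library lay apart from the other 4, at a gap of more than 0.71 times the range of all 5. About 1 in 20 groups would show such a gap by chance. Naïve 5 was the library in 3 of them. It held Aars at 198 CPM, where the next Naïve library held 103, and Slc7a5 at 103 CPM, where the next held 44.8. Naïve 5 also held Ddit3 at 7.64 CPM, where the next lowest held 20.4. Ag+Costim 4 held Farsb at 282 CPM, where the next held 235.0, and Slc7a6 at 58.4 CPM, where the next held 52.9. Ag+Costim 3 held Slc1a4 at 2.18 CPM, where the next held 1.63. Ag 3, the library of lowest depth, held Chac1 at 1.52 CPM, or 7 reads, where the next held 0.344.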

How the results depend on the processing

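For the 27 fold changes of genes chosen by the naming rule, of 236 values recomputed under settings other than a left-out library, 193 kept their direction and side of the threshold, 21 lost the call, 15 gained one and 7 changed sign. Of 405 values with 1 library left out, 367 stayed, 25 lost the call, 13 gained one and 0 changed sign. Outside these 27, further fold changes of members did change sign with 1 library left out. Among them were those of Farsa and Qars given above. Another was that of Slc7a5 in Ag against Naïve, at -0.17 with all libraries and 0.29 without Naïve 5. In Ag against Naïve, the count of members higher, 1, became 2 with a replicate block and with voom, and 0 with no filter, with lane as a term and with only the 10 libraries compared. Over all genes the main fit gave 529 higher, the block 755 and voom 1706. No filter gave 49 of 48994, and lane as a term and the 10 libraries gave 0. The count lower, 1, became 3 with library totals alone and with DESeq2, 6 with voom, and 0 with no filter, with lane as a term and with only the 10 libraries. Over all genes the main fit gave 636 lower, library totals alone 642, DESeq2 1497 of 14968 and voom 1772. No filter gave 159, lane as a term 0 and the 10 libraries 6 of 16742. Leaving out 1 library gave 0 to 6 members higher and 1 to 2 lower, with 92 to 2270 of all genes higher and 163 to 1601 lower. In Ag+Costim against Ag, the counts of 0 and 0 became 11 and 1 with DESeq2 and 27 and 1 with voom, and 0 to 14 and 0 to 1 with 1 library left out. In Ag+Costim against Naïve, the count higher, 21, became 1 with lane as a term and shifted less under the other settings. The count lower, 2, became 1 with no filter and within lane 3, 4 with voom and 0 with lane as a term. Over all genes these settings gave 1749 lower of 48994, 3772 of 18287, 7169 of 17366 and 685 of 17366. The main fit gave 4107. With library totals alone Slc3a2 joined the 2, and with only the 10 libraries Slc1a5 did. Leaving out 1 library gave 13 to 24 members higher and 1 to 2 lower, with 1413 to 4619 of all genes higher and 2191 to 5094 lower. The causes of these shifts were not tested. The log2 fold change of Atf4 in Ag+Costim against Naïve (0.03) became -0.00489 with size factors, -0.13 with library totals alone, -0.00415 with DESeq2, -0.0455 with voom and -0.0317 with the 10 libraries. With lane as a term, Ag against Naïve gave 0.0305 for Atf4 and -0.22 for Trib3. The replicate numbers did not pair the samples throughout: deviations of same-numbered libraries correlated at -0.32 to 0.47. In Ag against Naïve the values were 0.42, 0.47 and 0.41 for replicates 1, 4 and 5, and -0.12 and -0.32 for 2 and 3. In the other comparisons they were -0.25 to 0.17. The recorded sex is the same for each number in the 3 groups. The block added the calls of Sesn2 in Ag against Naïve (edgeR FDR = 0.024), and of Eprs (0.0492) and Slc7a5 (0.0389) in Ag+Costim against Naïve. By the deposited FPKM, Gars was again the most abundant member and Dars came before Slc1a5. The 4865952 counts of Ag 3 limit what can be read for Slc1a4 and Chac1, where 3 counts stand for 0.617 CPM.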
